A study of Homo sapiens with 8 samples.

Results

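Peaks in LINE elements (long interspersed nuclear elements) were the ChIP-seq peaks whose detailed annotation named a repeat of the LINE class. They numbered 1379 of the 23433 peaks in 6 lists. The lists came from DLD-1 cells, an established colon cancer line with high endogenous Wnt signaling, that carried a doxycycline-inducible, FLAG-tagged dominant negative TCF1E. Each construct was in its own clonal line, kept under blasticidin and zeocin. In dnTCF1EWT cells the C-clamp was wild type, and in dnTCF1Emut cells it carried a substitution that left it null for DNA binding. Chromatin was taken without doxycycline (0 h) or 2 h or 9 h after its addition and was precipitated with anti-FLAG beads. By western blot the study detected no precipitated dnTCF1E at 0 h, and it treats the peaks of untreated cells as background. The duplicates of each condition had been pooled before peaks were called. Each condition was therefore 1 list, tests between lists compared lists and not conditions, and the protein could not be told apart from the clone and the library. Sequencing depth was not known from the lists, and intervals covered counting error only. The dnTCF1EWT lists held 292 LINE peaks of 1907 at 0 h, 476 of 5585 at 2 h and 349 of 12996 at 9 h. The dnTCF1Emut lists held 56 of 708 at 0 h, 173 of 1883 at 2 h and 33 of 354 at 9 h. For comparison, 4515 peaks were annotated to no repeat and are called non-repeat peaks. Every peak in a repeat was annotated as intronic or intergenic. All peaks annotated to promoters, exons or transcript ends were therefore among the non-repeat peaks.

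LINE elements are retrotransposons that copied themselves through an RNA intermediate, and most copies in the human genome are truncated and inactive. The L1PA and L1PB subfamilies and L1HS are primate L1 elements, whereas L1M, HAL1, L2 and CR1-type elements are older and more diverged. TCF proteins bind the Wnt response element (WRE) with their HMG box, and the C-clamp of the E-tail adds contacts to a GC-rich Helper site. The WRE counted in these peaks was CTTTG followed by A or T, A or T, and C or G. The short Helper site was A or G followed by CCG, and the extended Helper site was A or G followed by CCGCC. The annotation software, HOMER, assigns the element that lies under the centre of a peak.

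The share of peaks in LINE elements went down with time in dnTCF1EWT cells, and no difference between the dnTCF1Emut lists passed a test when all peaks were counted. It was 15.3% at 0 h (95% Wilson interval 13.8 to 17.0), 8.52% at 2 h (7.82 to 9.28) and 2.69% at 9 h (2.42 to 2.98) in dnTCF1EWT. In dnTCF1Emut it was 7.91% (6.14 to 10.1), 9.19% (7.96 to 10.6) and 9.32% (6.71 to 12.8). By 2-sided Fisher's exact test adjusted over 7 pairs of lists (Benjamini-Hochberg), the odds of a LINE peak were lower at 2 h than at 0 h in dnTCF1EWT (odds ratio 0.515, 0.441 to 0.602, adjusted p = 1.8e-15). By the same exact test they were lower again at 9 h than at 2 h (0.296, 0.257 to 0.341, adjusted p = 7.6e-63). The number of LINE peaks did not follow the share. Non-repeat peaks made up 11.4% of the list at 0 h, 26.7% at 2 h and 12.6% at 9 h, and peaks in SINE repeats 53.3%, 49.5% and 76.2%. Neither step passed the exact test in dnTCF1Emut (2 h against 0 h, odds ratio 1.18, 0.860 to 1.61, adjusted p = 0.431; 9 h against 2 h, 1.02, 0.687 to 1.50, adjusted p = 0.920). Between the lines, the odds ratio of dnTCF1EWT over dnTCF1Emut by exact test was 2.11 at 0 h (1.56 to 2.84, adjusted p = 4.7e-07), 0.921 at 2 h (0.767 to 1.11, adjusted p = 0.431) and 0.268 at 9 h (0.185 to 0.390, adjusted p = 5.3e-09).

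These ratios depended on what else was in a list. In dnTCF1Emut the LINE peaks were 56 of 118 LINE plus non-repeat peaks at 0 h and 173 of 1151 at 2 h, so that over these peaks alone the share was lower at 2 h (odds ratio 0.196, exact test, adjusted p = 2.5e-14). Between the lines, within strata of 5% GC content the 2 h ratio turned to 2.72 (Mantel-Haenszel chi-square test, adjusted p = 2.2e-22), and the 9 h ratio was 1.08 (adjusted p = 0.824). Over LINE plus non-repeat peaks alone it was 1.8 at 2 h (exact test, adjusted p = 1.9e-09), whereas among peaks with a score of 67 or more it was 0.697 (adjusted p = 0.0151). Without peaks of under 15% GC, the 0 h ratio was 1.81 (exact test, adjusted p = 0.115).

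**Figure D1:**
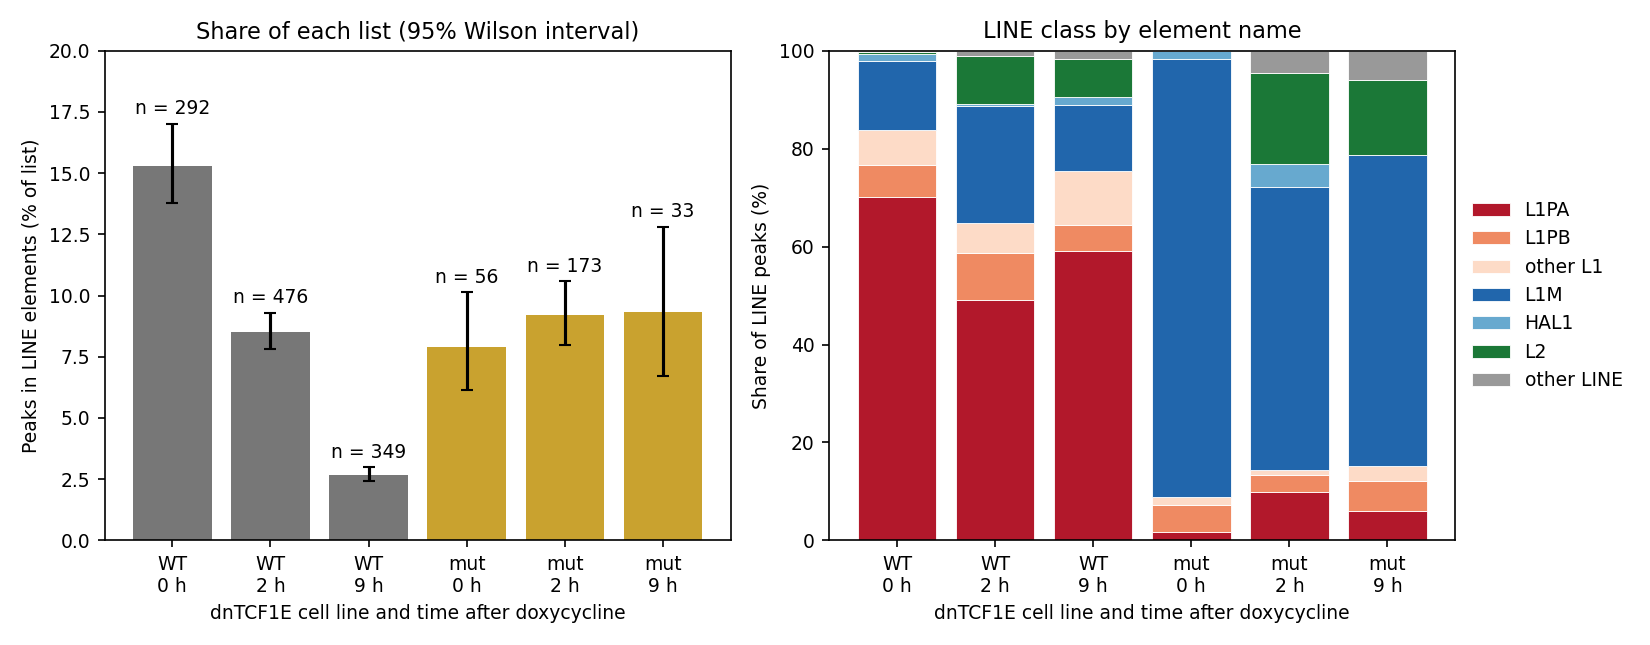
The left panel plots the percentage of each list that lay in LINE elements (bars) with 95% Wilson intervals and the number of LINE peaks, and the right panel divides the LINE peaks of each list by class (percent). The dnTCF1EWT share steps down from 15.3% to 2.69%, and L1PA makes up 49.2% to 70.2% of dnTCF1EWT but 1.79% to 9.83% of dnTCF1Emut LINE peaks.

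The classes of element made up different shares of the LINE peaks in the 2 cell lines, which was not tested by class. L1PA elements held 205 of 292 LINE peaks (70.2%) at 0 h, 234 of 476 (49.2%) at 2 h and 206 of 349 (59.0%) at 9 h in dnTCF1EWT. In dnTCF1Emut they held 1, 17 and 2, and L1M elements were the main class with 50 of 56 (89.3%), 100 of 173 (57.8%) and 21 of 33 (63.6%). L2 elements held 1 peak at 0 h, 47 at 2 h and 27 at 9 h in dnTCF1EWT, and none, 32 and 5 in dnTCF1Emut. At 2 h L1M elements held 113 of all 5585 peaks in dnTCF1EWT and 100 of all 1883 in dnTCF1Emut. Of these L1M peaks, 28 in dnTCF1Emut and 0 in dnTCF1EWT had under 15% GC. Any dnTCF1Emut 2 h peak overlapped 17 of the 113. Over all LINE classes, 37 LINE peaks of dnTCF1EWT at 2 h were overlapped by a dnTCF1Emut peak that was also in a LINE element. The CR1-type elements CR1_Mam, L3, L3b and Plat_L3 held at most 8 peaks in any list.

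By element name, L1PA3, L1PA7 and L1PA4 led at 0 h in dnTCF1EWT with 30, 29 and 28 peaks among 49 names. At 2 h L1PB1, L1PA7 and L1PA3 led with 32, 26 and 25 peaks among 83 names, and at 9 h L1PA3, L1PA4 and L1PA5 led with 36, 33 and 33 among 66. No single name dominated a dnTCF1EWT list. In dnTCF1Emut at 0 h, L1M4b alone held 37 of 56 LINE peaks (66.1%). It also led at 2 h with 24, before L2a with 13 and L2c with 11, and at 9 h with 5.

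The L1 family as a whole held 290 of 292, 424 of 476 and 316 of 349 LINE peaks in dnTCF1EWT and 56 of 56, 133 of 173 and 26 of 33 in dnTCF1Emut. Its share at 2 h was lower than at 0 h in dnTCF1EWT (odds ratio 0.056, 0.014 to 0.233, adjusted p = 1.4e-08, Fisher's exact test). It was also lower in dnTCF1Emut (odds ratio 0.029, with 0.5 added to each cell because one was 0, exact adjusted p = 2.6e-05), a step that did not pass without peaks of under 15% GC (0.111, adjusted p = 0.118). At 2 h it was higher in dnTCF1EWT than in dnTCF1Emut (odds ratio 2.45, 1.55 to 3.87, exact test, adjusted p = 0.000436). Among the 1000 highest-scoring peaks of each list that direction turned, with 35 of 66 against 67 of 92 (odds ratio 0.421, exact test, adjusted p = 0.0278).

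Most LINE peaks of the dnTCF1EWT lists and of dnTCF1Emut at 9 h had scores near the lower limit of the lists. The score was that of the peak caller, MACS, had a minimum just above 50 and was not scaled for depth. In dnTCF1EWT the median score of LINE peaks was 55.5 at 0 h (quartiles 52.1 and 61.0), 56.8 at 2 h (53.6 and 68.9) and 56.6 at 9 h (52.6 and 63.7). Non-repeat peaks had medians of 58.8, 92.9 and 64.7. In dnTCF1Emut the medians of LINE peaks were 83.6 (57.7 and 134.5), 80.1 (60.8 and 117.5) and 56.9 (54.6 and 74.7), beside 68.6, 86.8 and 66.9 for non-repeat peaks. At 2 h, 60 of 476 dnTCF1EWT LINE peaks (12.6%) and 702 of 1492 non-repeat peaks (47.1%) had a score of 100 or more. The share was 16.6% of all peaks of that list and 4.53% of peaks in other repeats. In dnTCF1Emut at 2 h the LINE and non-repeat shares were nearer each other, with 69 of 173 (39.9%) and 404 of 978 (41.3%). There it was 35.8% of all peaks and 27.6% of peaks in other repeats. None of the LINE peaks of dnTCF1EWT at 0 h reached 100.

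Most high scores at 2 h belonged to the older elements. Of the 60 LINE peaks of dnTCF1EWT with a score of 100 or more at 2 h, 25 lay in L2, 22 in L1M, 6 in L1PA, 4 in CR1-type elements, 2 in L1PB and 1 in HAL1. The median score was 103 for L2, 59.9 for L1M and 55.9 for L1PA. At 9 h the medians of these classes were 76.8, 57.8 and 55.4. In dnTCF1Emut at 2 h, L2 had a median of 91.9, L1M of 79.1 and L1PA of 76.1.

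Among the 100 highest-scoring peaks at 2 h, 1 was a LINE peak in dnTCF1EWT and 14 were LINE peaks in dnTCF1Emut. At 0 h the counts were 10 and 7, and at 9 h 2 and 6. The lists differed in length, and these counts carry no test. All 14 at 2 h in dnTCF1Emut lay in older elements, and 11 of them held a WRE.

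The peaks differed in base composition and length as well. Median GC content of LINE peaks was 38.8%, 38.9% and 42.6% in dnTCF1EWT at 0, 2 and 9 h, beside 53.1%, 45.6% and 50% for non-repeat peaks. In dnTCF1Emut it was 6.83%, 35.9% and 35.8%, beside 35.7%, 38.4% and 39.2%. Median lengths of LINE peaks were 204, 198 and 195 bp in dnTCF1EWT and 478, 469 and 424 bp in dnTCF1Emut. Longer peaks can hold more motif matches, so the motif shares below were also compared within strata of 100 bp of length.

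**Figure D2:**
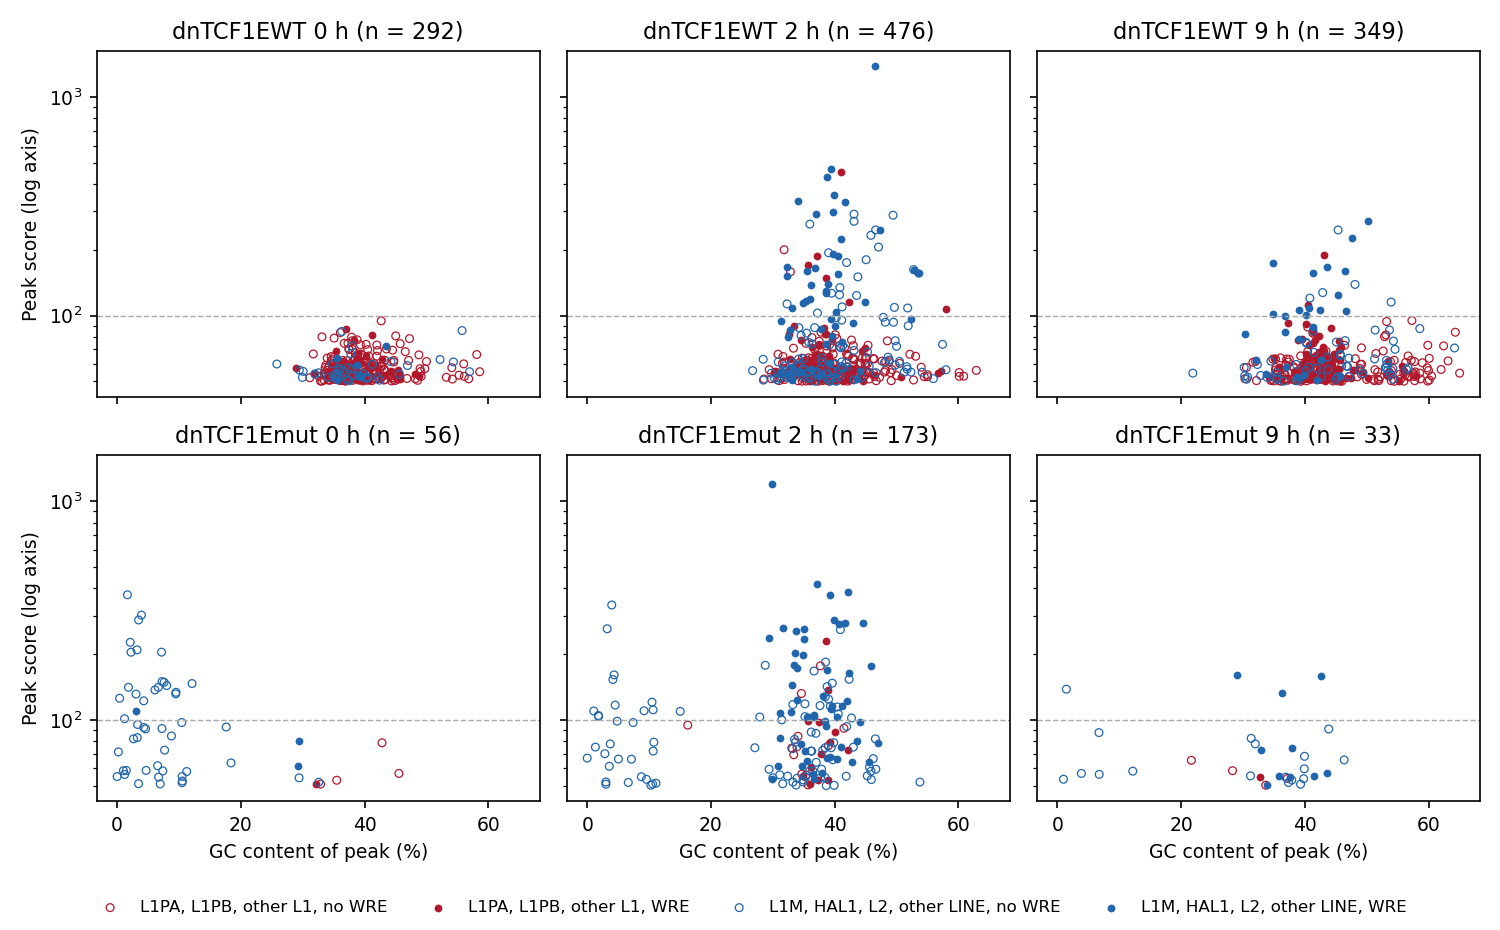
Each point is 1 LINE peak, placed by GC content (percent) and peak score (log axis), in 1 panel per list; red marks L1PA, L1PB and other L1, blue marks the older classes, filled points hold a WRE, and the dashed line marks a score of 100. The dnTCF1EWT 2 h panel has 52 older and 8 primate L1 peaks at 100 or above, and most dnTCF1Emut 0 h points (45 of 56) lie below 15% GC.

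A cluster of very AT-rich LINE peaks was found in the dnTCF1Emut lists. At 0 h, 45 of 56 LINE peaks (80.4%) had under 15% GC, beside 19 of 62 non-repeat peaks (30.6%). At 2 h the counts were 30 of 173 (17.3%) and 16 of 978 (1.64%), and at 9 h 6 of 33 (18.2%) and 5 of 127 (3.94%). Of all dnTCF1Emut peaks, 82.9% were that AT-rich at 0 h, 20.9% at 2 h and 35.0% at 9 h. The AT-rich peaks were therefore not particular to LINE elements. No dnTCF1EWT LINE peak was that AT-rich at any time. Of the 30 peaks at 2 h, 25 were overlapped by a dnTCF1Emut 0 h peak, which was listed before doxycycline was added. Most were annotated as L1M4b, with 36 of 37 L1M4b peaks under 15% GC at 0 h (median 4.59%, range 0.201% to 17.6%) and 21 of 24 at 2 h. The L1M4b peaks of dnTCF1EWT, 2 at 2 h and 4 at 9 h, had between 36.8% and 53.4% GC. Over the L1M class as a whole, which these peaks dominate, 44 of 50 dnTCF1Emut peaks at 0 h were under 15% GC and the median was 6.60%, beside 37.3% in dnTCF1EWT at 0 h. Simple repeats, which held 557 of 708 dnTCF1Emut peaks at 0 h, 418 of 1883 at 2 h and 131 of 354 at 9 h, moved with these peaks, and their part in the LINE annotation was not tested.

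WREs were found in 54 of 292 LINE peaks (18.5%, 14.5 to 23.3) of dnTCF1EWT at 0 h, where 5.66% of all peaks held one. At 2 h the count was 120 of 476 (25.2%, 21.5 to 29.3), against 16.3% of all peaks, and at 9 h 125 of 349 (35.8%, 31.0 to 41.0), against 6.56%. In dnTCF1Emut 4 of 56 LINE peaks (7.14%, 2.81 to 17.0) held a WRE at 0 h, against 2.12% of all peaks. At 2 h 68 of 173 did (39.3%, 32.3 to 46.7), against 36%, and at 9 h 11 of 33 (33.3%, 19.8 to 50.4), against 30.5%. The shares of all peaks were low in dnTCF1EWT, whose lists were rich in SINE peaks, so non-repeat peaks were the main comparison.

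Compared with non-repeat peaks, LINE peaks held a WRE more often in dnTCF1EWT at 0 h (before induction) and at 9 h, and less often at 2 h. At 0 h, 15 of 218 non-repeat peaks (6.88%) held a WRE (odds ratio for LINE 3.07, 1.68 to 5.61, adjusted p = 0.000252, Fisher's exact test over 6 lists). At 9 h, 379 of 1638 did (23.1%; odds ratio 1.85, 1.45 to 2.37, exact test, adjusted p = 5.6e-06). Neither difference passed the Mantel-Haenszel chi-square test within GC strata (0 h, 2.18, adjusted p = 0.269; 9 h, 1.24, adjusted p = 0.269). At 2 h, 559 of 1492 non-repeat peaks did (37.5%; odds ratio 0.563, 0.446 to 0.709, exact test, adjusted p = 4.7e-06). That difference did not pass within strata of length (0.985, chi-square test, adjusted p = 0.963) or in peaks with a score of 67 or more (59 of 121 against 472 of 1009, 1.08, adjusted p = 0.841). In dnTCF1Emut no list passed, with odds ratios of 1.12 at 0 h (0.265 to 4.69), 0.779 at 2 h (0.560 to 1.08) and 0.634 at 9 h (0.284 to 1.42). The ratio of the 2 h odds ratios, dnTCF1EWT over dnTCF1Emut, was 0.722 (Wald chi-square test, adjusted p = 0.114).

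In the 2 h lists the WRE share was larger at scores of 100 or more than at 50 to 67. This is a description with no test, and peak length was not held equal. In dnTCF1EWT at 2 h it was 61 of 355 LINE peaks (17.2%) at scores of 50 to 67, 22 of 61 (36.1%) at 67 to 100, 26 of 41 (63.4%) at 100 to 200 and 11 of 19 (57.9%) at 200 or more. Non-repeat peaks of the same score ranges had 18.0%, 35.8%, 52.4% and 50.6%. In dnTCF1Emut at 2 h the LINE shares were 25.9%, 37.0%, 41.2% and 83.3% (15 of 18 in the top range), and non-repeat peaks had 39.1%, 42.6%, 49.5% and 59.0%. At 0 h the shares were 18.5% of LINE peaks at 50 to 67 and 18.2% at 67 to 100 in dnTCF1EWT, and 2 of 22, 1 of 13, 1 of 14 and 0 of 7 over the 4 ranges in dnTCF1Emut. LINE peaks of the 2 h lists were also longer in the higher score ranges. Their median lengths over the 4 ranges were 178, 258, 396 and 484 bp in dnTCF1EWT. In dnTCF1Emut they were 330.5, 470.5, 522 and 649 bp. Mean WREs per kb were 0.811, 1.45, 2.33 and 1.84 in dnTCF1EWT, and 1.02, 1.12, 1.01 and 1.88 in dnTCF1Emut. A link between score and WREs apart from length was not tested.

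**Figure D3:**
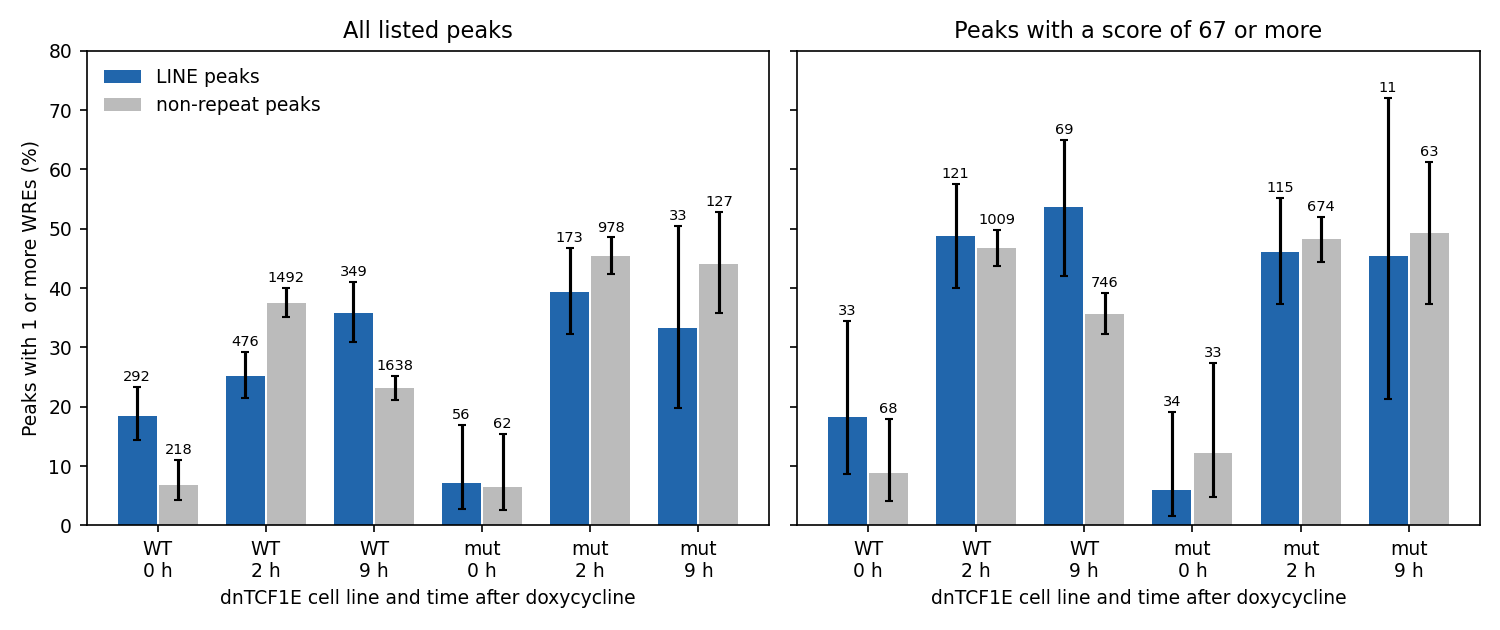
Bars give the percentage of LINE (blue) and non-repeat (grey) peaks with 1 or more WREs in each list, with 95% Wilson intervals and the number of peaks above each bar; the left panel uses all peaks and the right panel those with a score of 67 or more. In dnTCF1EWT at 2 h the LINE bar is lower over all peaks (25.2% against 37.5%) and level at higher scores (48.8% against 46.8%).

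Between lists, the WRE share of LINE peaks was lower in dnTCF1EWT than in dnTCF1Emut at 2 h (odds ratio 0.520, 0.360 to 0.752, adjusted p = 0.00212, Fisher's exact test over 7 pairs). The direction turned within strata of length (2.25, chi-square test, adjusted p = 0.00442), and with a score of 67 or more 59 of 121 and 53 of 115 LINE peaks held a WRE (odds ratio 1.11, adjusted p = 0.873). It was higher at 9 h than at 2 h in dnTCF1EWT (1.66, 1.23 to 2.24, exact test, adjusted p = 0.00276), which did not pass in peaks with a score of 67 or more (1.22, adjusted p = 0.873). In dnTCF1Emut it was higher at 2 h than at 0 h (8.42, 2.91 to 24.3, exact test, adjusted p = 1.4e-05). Without peaks of under 15% GC that ratio was 2.42 (exact test, adjusted p = 0.395). The other pairs did not pass the exact test (dnTCF1EWT over dnTCF1Emut 2.95 at 0 h, adjusted p = 0.0675, and 1.12 at 9 h, adjusted p = 0.851; dnTCF1EWT 2 h over 0 h 1.49, adjusted p = 0.0580; dnTCF1Emut 9 h over 2 h 0.772, adjusted p = 0.657).

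The class with most of the WRE peaks at 9 h in dnTCF1EWT was L1PA. It held a WRE in 42 of 205 peaks (20.5%) at 0 h, 57 of 234 (24.4%) at 2 h and 83 of 206 (40.3%) at 9 h. L1PA peaks with 2 or more WREs numbered 3, 6 and 38. By name, a WRE was in 12 of 23 L1PA5 peaks at 0 h and 21 of 33 at 9 h, whereas it was in 14 of 36 L1PA3 peaks at 9 h. The L1PA copies share sequence by descent, so these peaks were not independent of each other. L2 peaks held a WRE in 19 of 47 at 2 h and 9 of 27 at 9 h in dnTCF1EWT, and in 17 of 32 at 2 h in dnTCF1Emut.

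Short Helper sites, the C-clamp element, were in 73 of 292 LINE peaks (25%) of dnTCF1EWT at 0 h, against 45.9% of all peaks. At 2 h the count was 130 of 476 (27.3%), against 54.1%, and at 9 h 126 of 349 (36.1%), against 55.4%. In dnTCF1Emut 3 of 56 (5.36%) held one at 0 h, against 9.18% of all peaks, 67 of 173 (38.7%) at 2 h, against 38.9%, and 10 of 33 (30.3%) at 9 h, against 30.8%. Non-repeat peaks had 68.2% at 2 h in dnTCF1EWT and 49.5% in dnTCF1Emut. At 2 h LINE peaks with a short Helper site were a smaller share in dnTCF1EWT than in dnTCF1Emut (odds ratio 0.594, 0.412 to 0.857, adjusted p = 0.0135, Fisher's exact test). That ratio turned to 1.48 within length strata (chi-square test, adjusted p = 0.190). The share was higher at 9 h than at 2 h in dnTCF1EWT (1.50, 1.12 to 2.02, exact test, adjusted p = 0.0135), and 0.886 within GC strata (adjusted p = 0.640). Higher shares by the exact test were also found in dnTCF1EWT than in dnTCF1Emut at 0 h (5.89, adjusted p = 0.00217) and in dnTCF1Emut at 2 h than at 0 h (11.2, adjusted p = 4.0e-06). Without peaks of under 15% GC, which left 11 LINE peaks in the dnTCF1Emut 0 h list, neither passed the exact test (3.33, adjusted p = 0.428, and 8.82, adjusted p = 0.0548). The extended Helper site was rare, in 2, 9 and 10 LINE peaks of dnTCF1EWT and in 0, 1 and 0 of dnTCF1Emut. A count of 0 in the 33 peaks at 9 h allows a share of up to 10.4% (upper limit of the Wilson interval).

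LINE peaks were less often found again in another list than non-repeat peaks in dnTCF1EWT. Of the 476 at 2 h, 30 (6.30%) were overlapped by a 9 h peak, beside 482 of 1492 non-repeat peaks (32.3%) and 14.9% of all peaks (odds ratio 0.141, 0.096 to 0.207, adjusted p = 1.2e-34, Fisher's exact test over 4 comparisons). Within strata of score the ratio was 0.287 (chi-square test, adjusted p = 3.3e-09). By the dnTCF1Emut 2 h list, 43 of 476 (9.03%) were overlapped, beside 368 of 1492 (24.7%) and 9.44% of all peaks (0.303, 0.217 to 0.424, exact test, adjusted p = 2.0e-14). Within score strata that ratio was 0.714 (chi-square test, adjusted p = 0.105). The LINE share in the dnTCF1Emut 2 h list was thus near that of all peaks. Of dnTCF1EWT 2 h peaks in other repeats, 8.87% were overlapped at 9 h and 3.21% by the dnTCF1Emut 2 h list. Low overlap was therefore not particular to LINE elements. In dnTCF1Emut, 18 of 173 LINE peaks (10.4%) at 2 h were overlapped at 9 h, beside 97 of 978 (9.92%) and 12.4% of all peaks (1.05, 0.620 to 1.79, exact test, adjusted p = 0.891). By the dnTCF1EWT 2 h list 45 of 173 (26.0%) were overlapped, beside 365 of 978 (37.3%) and 27.9% of all peaks (0.590, 0.410 to 0.849, exact test, adjusted p = 0.00586). Without peaks listed at 0 h the last ratio was 0.743 (exact test, adjusted p = 0.186). Here too the LINE share was near that of all peaks, and 15.8% of peaks in other repeats were overlapped.

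The shares of LINE peaks already listed before induction were near those of all peaks. In dnTCF1EWT the 0 h list overlapped 7 of 476 LINE peaks at 2 h (1.47%), beside 1.4% of all peaks. In dnTCF1Emut the 0 h list overlapped 27 of 173 (15.6%), beside 17.3% of all peaks, and 25 of these 27 were AT-rich.

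Merged over the 6 lists, the LINE peaks made up 1256 distinct regions, of which 1154 (91.9%) came from 1 list, 87 from 2, 12 from 3 and 3 from 4. Of the 827 regions in L1PA, L1PB and other L1, 24 (2.90%) came from 2 or more lists. Of the 429 regions in older elements, 78 (18.2%) did. Score and AT-rich peaks were not held equal between these groups. Peaks outside LINE elements were not merged in this way, so the shares had no direct comparison. Most peaks of any kind were also not shared, since 14.9% of all dnTCF1EWT and 12.4% of all dnTCF1Emut peaks at 2 h were overlapped at 9 h. The WRE share was 25.4% in regions from 1 list and 40.2% (41 of 102) in those from 2 or more. A region counted as holding a WRE if any of its peaks did. Regions from 2 or more lists therefore had more chances to hold one, and the 2 shares are not directly comparable.

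LINE peaks listed at both induced times mostly had the higher score at 2 h, as non-repeat peaks did. For the 30 shared between 2 h and 9 h in dnTCF1EWT the median log2 ratio of scores (2 h over 9 h) was 0.58, and 25 were higher at 2 h, beside 355 of 482 non-repeat peaks with a median of 0.73. All 18 shared in dnTCF1Emut were higher at 2 h, with a median of 1.54, beside 85 of 97 non-repeat peaks with a median of 1.38. Between the lines at 2 h the median log2 ratio (dnTCF1EWT over dnTCF1Emut) was 0.18 for 43 LINE peaks and 0.54 for 368 non-repeat peaks. Lists may differ in depth, which was not known, so these ratios carry no test.

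Of the 5 highest-scoring LINE peaks in dnTCF1EWT at 2 h, 4 were in older elements. The first was in an L2a element in intron 3 of 35 of LTBP2, which codes for a latent TGF-beta binding protein of the extracellular matrix (hg19, chr14:75046538-75047188). Its score of 1382 put it at rank 7, it held 2 WREs, and the overlapping peaks scored 105 at 9 h and 89.1 in dnTCF1Emut at 2 h. The overlapping dnTCF1Emut peak was annotated to an LTR element, not a LINE. The second was a HAL1 peak 12.1 kb upstream of MAMDC2 (chr9:72646094-72646630), with 467 at 2 h, 84.1 at 9 h and 279 in dnTCF1Emut at 2 h. Both loci were therefore listed in both lines at 2 h, with unequal scores.

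The remaining one was an L1PA10 peak, the third among LINE peaks (chr3:41465998-41466764, 2 WREs). It lay in intron 34 of 36 of ULK4, and its nearest annotated start site was that of CTNNB1, the beta-catenin gene, 225 kb away. Its score was 455 at 2 h, 112 at 9 h and 72.9 in dnTCF1Emut at 2 h. A CR1_Mam peak 132 kb from NEDD1 held 3 WREs and scored 358 at 2 h, 78.4 at 9 h and 103 in dnTCF1Emut at 2 h. The overlapping 9 h peak was annotated as a non-repeat peak.

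At 9 h in dnTCF1EWT the first LINE peak was an L1M5 peak in intron 1 of 22 of LRP5, a co-receptor for Wnt ligands (chr11:68088650-68089105). At 2 h an overlapping peak scored 176 but was annotated as a non-repeat peak. The L1M5 peak scored 272 at 9 h, and no dnTCF1Emut list held a peak there. It held 1 WRE, 6 short Helper sites and 1 extended Helper site. The next were an L3 peak in intron 1 of 20 of MRVI1 (247), an L2 peak in intron 2 of 13 of OSBPL1A (227) and an L1PA4 peak 65.8 kb from MIR3679 (188). None of these 3 was listed at 2 h or in dnTCF1Emut.

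In dnTCF1Emut at 2 h the first LINE peak was an L1MA8 peak with 4 WREs (chr2:57198238-57199306), rank 2 of the list, 788 kb from CCDC85A. It scored 1199 at 2 h, 161 at 9 h and 61.3 at 0 h, and no dnTCF1EWT list held it. An L1MC4a peak 241 kb from CYP26B1, a retinoic acid hydroxylase, scored 418 at 2 h and 72.7 at 9 h. The overlapping dnTCF1EWT 2 h peak scored 71.4 and was annotated to an LTR element, not a LINE. The fifth was an AT-rich L1M4b peak 4.95 kb upstream of PLK3 (3.96% GC, no WRE). It scored 336 at 2 h and 138 at 9 h, and a 0 h peak with another annotation overlapped it with 479. The 3 highest LINE peaks at 0 h, nearest to IER5L, LOC732275 and SLC25A30, were L1M4b peaks of 1.67% to 3.92% GC with scores of 374, 302 and 287.

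In dnTCF1EWT at 0 h the highest LINE scores were 94.6 for an L1HS peak in intron 3 of 15 of EPHB1, 86.6 for an L1P1 peak nearest to HMGN5 and 85.4 for an L1M2a peak nearest to PRSS21. None of the 3 was listed at another time or in dnTCF1Emut.

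Peaks of 3 LINE loci in the dnTCF1EWT 2 h list were overlapped in all 3 other induced lists, and none of the 3 was listed at 0 h. The peak nearest to LOC400655, an L1M4b element of 47.3% GC, scored 246 and 160 in dnTCF1EWT at 2 h and 9 h, and 176 and 56.9 in dnTCF1Emut. The L2a peak in intron 4 of 17 of AUTS2 (chr7:69673631-69673981) scored 92.1 and 62.8, and 383 and 158. At 2 h the LOC400655 locus scored higher in dnTCF1EWT and the AUTS2 locus scored higher in dnTCF1Emut, and both held at least 1 WRE.

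**Figure D4:**
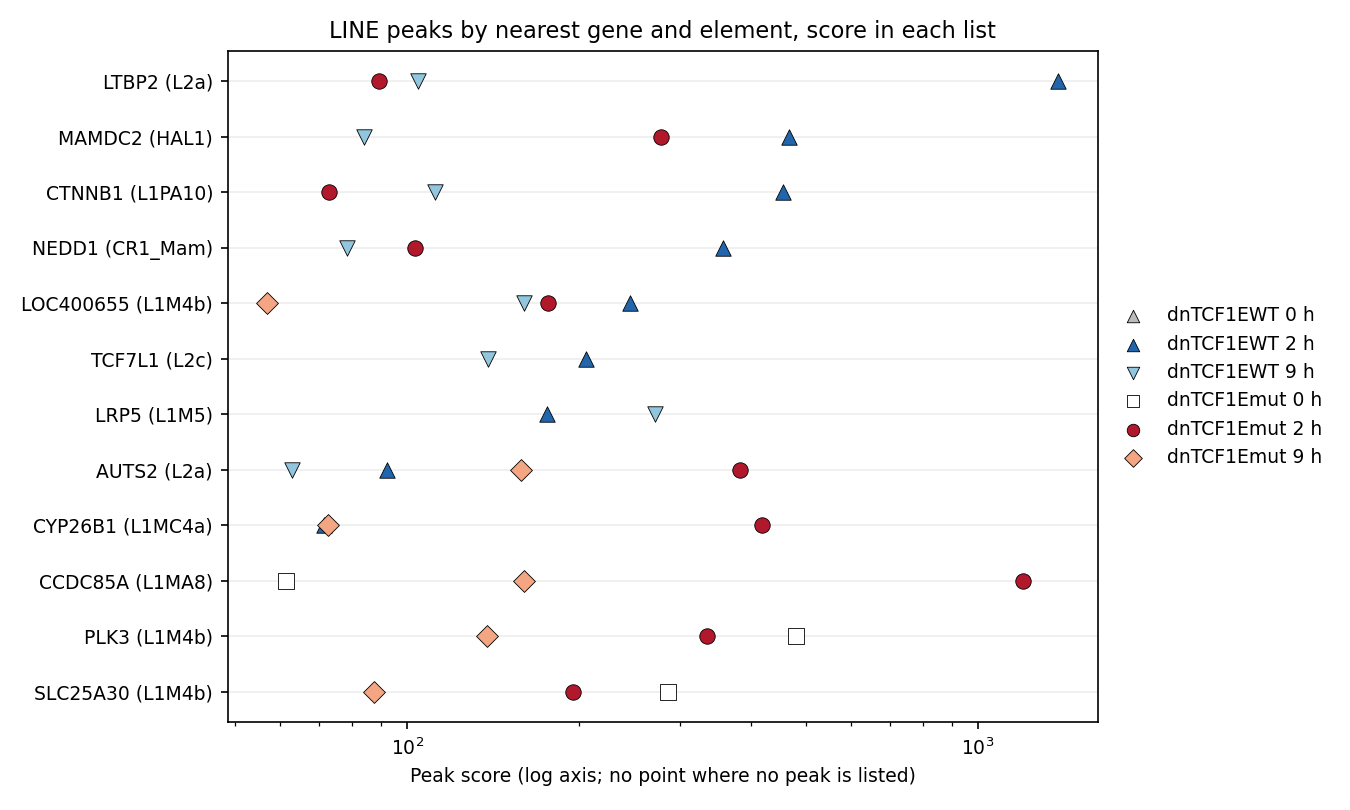
Each row is a LINE locus, named by its nearest gene and its element, and each symbol is the score (log axis) of the overlapping peak in 1 list, whatever that peak's annotation, with no symbol where none was listed. LTBP2 spans 89.1 to 1382, TCF7L1 and LRP5 have dnTCF1EWT points only, and PLK3 and SLC25A30 have dnTCF1Emut points only.

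A list of 29 Wnt target and pathway genes, which did not include LRP5, was also examined. LINE peaks were nearest to 2 in dnTCF1EWT at 2 h, CTNNB1 and TCF7L1, and these 2 peaks were among 42 peaks of any kind nearest to the 29 genes. They were 0.420% of LINE peaks, beside 0.752% of all peaks. At 9 h LINE peaks were again nearest to the same 2 genes, among 54 peaks (0.573% of LINE peaks and 0.416% of all peaks), and in dnTCF1Emut at 2 h to 1, CTNNB1, among 22 (0.578% and 1.17%). No LINE peak of the other 3 lists was nearest to a gene of the list. The TCF7L1 peak was in an L2c element in intron 3 of 11 of this TCF family member (chr2:85381540-85381951). It scored 206 at 2 h and 139 at 9 h in dnTCF1EWT and was not listed in dnTCF1Emut. It held 3 short Helper sites and no WRE.

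LINE peaks of dnTCF1EWT had larger median distances from genes than non-repeat peaks did, a description with no test. Their median distance to the nearest start site was 103, 70.0 and 72.4 kb at 0, 2 and 9 h, beside 26.4, 30.7 and 19.5 kb for non-repeat peaks. In dnTCF1Emut it was 22, 46.6 and 59.9 kb, beside 23.7, 56.8 and 54.3 kb. Between 27.3% and 36.1% of LINE peaks in each list were intronic and the rest were intergenic. Peaks in other repeats were also all intronic or intergenic, and only non-repeat peaks could be annotated to promoters or exons. These comparisons with non-repeat peaks were therefore set in part by the annotation. For peaks in other repeats the dnTCF1EWT median at 2 h was 37.7 kb, and 89 of 3617 lay within 2 kb of a start site. At 2 h in dnTCF1EWT 4 LINE peaks, of 476, lay within 2 kb of a start site, beside 240 of 1492 non-repeat peaks. The 3 with the highest scores were nearest to CPA5 (L1MEg, 117), GJA3 (L2b, 56.8) and SPHKAP (L1PB1, 54.5), and no other list held them.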

How the data were processed

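ChIP-seq libraries of DLD-1 cells were made by the authors at 0, 2 and 9 h of doxycycline, and the input libraries and reads were not used here. Per the submitters' processing notes, the tools were CASAVA 1.8.2, Bowtie2 2.0.0, MACS 1.3 and HOMER 3.16, with positions in hg19. The labels name a first replicate for most libraries, whereas the study's methods describe pooled duplicates and the file headers name a folder of both. The deposited lists give a peak score by the authors' peak caller, GC and CpG content as a fraction (printed here as percent), the distance to the nearest start site and the authors' count of WREs and Helper sites in each peak. Sequence depth was not given, and no genome sequence of this build was used.

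The peaks with LINE in their detailed annotation were taken from all 6 lists, and non-repeat peaks were those naming no repeat. All positions and scores in the annotated lists matched the deposited BED lists. Members and gene lists were chosen with earlier results of these data known. Shares were given with 95% Wilson intervals and compared by 2-sided Fisher's exact test, with Woolf intervals for odds ratios, 0.5 added to each cell where one was 0, and Benjamini-Hochberg adjustment within a family of comparisons at 0.05. Strata used the Mantel-Haenszel odds ratio with its chi-square test, and differences between odds ratios used a Wald chi-square test. Scores, GC content and lengths are medians with no test, since peaks are not replicates. Any shared base counted as overlap. Peaks were named by rule: the 5 highest-scoring LINE peaks of the dnTCF1EWT 2 h, dnTCF1EWT 9 h and dnTCF1Emut 2 h lists and the 3 highest of the others, those shared by all induced lists, the 3 highest within 2 kb of a start site at 2 h in dnTCF1EWT, those nearest to 29 Wnt genes, and the 5 commonest element names of each list. From these, the peaks and names described were selected, and some named peaks are not reported here. Transcripts were given gene symbols from RefSeq, and all 9 matched. Alternatives were the 1000 highest-scoring peaks, scores of at least 67 or 100, strata of GC, length or score, other comparison sets, and leaving out chromosome Y, 0 h or AT-rich peaks. Fits used SciPy 1.17.1 and statsmodels 0.14.6 in Python 3.11.15, tables used pandas 2.3.3 with NumPy 2.4.6, plots used matplotlib 3.10.9, and the tests were checked on simulated data.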

Additional observations from a re-analysis of the deposited data

Results flagged for a closer look

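The change of the LINE share with time differed between the cell lines. The odds ratio of a LINE peak at 2 h over 0 h was 0.515 in dnTCF1EWT and 1.18 in dnTCF1Emut, a ratio of odds ratios of 0.437 (Wald chi-square test, adjusted p = 5.9e-06 over 3 tests). At 9 h over 2 h it was 0.296 and 1.02, a ratio of 0.291 (Wald chi-square test, adjusted p = 1.9e-08). Each list was 1 pooled sample, so the tests compare lists. By the same chi-square test the first ratio was 1.22 over LINE plus non-repeat peaks (adjusted p = 0.389), and the second was 0.561 in peaks with a score of 67 or more (adjusted p = 0.165).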

How the results depend on the processing

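Of 240 recomputed odds ratios, 172 were counted as unchanged, 25 no longer passed and 16 newly passed. Another 27 turned direction where the main or the recomputed value passed. A turn where neither value passed was counted as unchanged. Of 48 recomputed medians of score and GC content, 44 moved by no more than the interquartile range of the peaks. Both counts include values that could not differ from the main one. The top 1000 was the whole dnTCF1Emut list at 0 h (708 peaks) and 9 h (354 peaks). Leaving out GC under 15% removed 0 dnTCF1EWT LINE peaks. In the 1000 highest-scoring peaks the median score moved to 157 (LINE) at 2 h and to 105 (LINE) and 130 (non-repeat) at 9 h in dnTCF1EWT, and without peaks of under 15% GC the median GC of LINE peaks in dnTCF1Emut at 0 h moved to 32.2%. WT and mut below stand for the dnTCF1EWT and dnTCF1Emut lists, and every value is an odds ratio.

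LINE share, WT over mut: at 0 h, 1.48 over LINE plus non-repeat peaks, 0.15 at scores of 100 or more and 1.81 without GC under 15%. At 2 h, 2.72 in GC strata, 1.8 over LINE plus non-repeat peaks, 0.697 at 67 or more and 0.608 at 100 or more. At 9 h, 1.08 in GC strata, 0.820 over LINE plus non-repeat peaks and 0.587 at 100 or more. WT 2 h over 0 h was 4.68 and WT 9 h over 2 h was 0.530 at 100 or more. The WT 0 h list had 33 peaks at 100 or more and 0 of them in LINE elements. The 0.15 and 4.68 therefore rest on the 0.5 added to each cell and do not settle a direction. Mut 2 h over 0 h was 0.196 over LINE plus non-repeat peaks.

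WRE share, LINE over non-repeat: WT 0 h, 2.18 in GC strata and 2.30 at 67 or more. WT 2 h, 1.84 against all peaks outside LINE, 0.985 in length strata, 1.51 at 100 or more, 1.08 at 67 or more and 1.49 in the top 1000. WT 9 h, 1.24 in GC strata, 3.42 at 100 or more and 2.17 in the top 1000. Mut 0 h, 4.48 against all peaks outside LINE.

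WRE share of LINE peaks, WT over mut: at 0 h, 5.48 in length strata and 3.59 in the top 1000. At 2 h, 2.25 in length strata, 1.47 at 100 or more, 1.11 at 67 or more and 1.54 in the top 1000. At 9 h, 4.23 in length strata and 3.38 in the top 1000. The mut 0 h and 9 h lists hold 708 and 354 peaks in all. The 0 h and 9 h values in the top 1000 therefore set the higher-scoring part of WT against the whole mut list. WT 2 h over 0 h was 4.28 at 67 or more and 5.58 in the top 1000. WT 9 h over 2 h was 1.86 at 100 or more, 1.22 at 67 or more and 1.10 in the top 1000. Mut 2 h over 0 h was 1.45 in GC strata and 2.42 without GC under 15%.

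Short Helper share of LINE peaks, WT over mut: at 0 h, 6 at 67 or more and 3.33 without GC under 15%. At 2 h, 1.48 in length strata, 1.62 at 100 or more, 1.11 at 67 or more and 1.51 in the top 1000. WT 2 h over 0 h was 3.90 in the top 1000. WT 9 h over 2 h was 0.886 in GC strata, 0.306 at 100 or more, 0.559 at 67 or more and 0.409 in the top 1000. Mut 2 h over 0 h was 3.06 in GC strata and 8.82 without GC under 15%.

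L1 share of LINE peaks, WT over mut: at 2 h, 0.5004 at 100 or more, 0.697 at 67 or more and 0.421 in the top 1000. At 9 h, 6.45 in GC strata, 3.35 without GC under 15% and 3.40 without 0 h peaks. WT 9 h over 2 h was 1.73 in GC strata, and mut 2 h over 0 h was 0.111 without GC under 15%.

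Overlap, LINE over non-repeat: WT 2 h in mut 2 h was 0.714 in score strata, and mut 2 h in WT 2 h was 0.743 without 0 h peaks. Ratios of odds ratios, whose alternatives were chosen after seeing the data: LINE share 2 h over 0 h, 1.22 over LINE plus non-repeat peaks and 3.99 at 100 or more; 9 h over 2 h, 0.561 at 67 or more and 0.965 at 100 or more; WRE in LINE at 2 h, 0.543 without 0 h peaks and 0.531 without GC under 15%. The 3.99 rests on the WT 0 h list, which had 0 LINE peaks at 100 or more, and on the 0.5 added to each cell. Fewer peaks were counted at higher scores, and the cause of these changes was not tested.

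No paired analysis was possible because each condition is 1 pooled list, and for the same reason no replicate was left out. Leaving out 0 h peaks gave no value for the 0 h lists, and groups of fewer than 5 peaks gave none.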

Other observations

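In dnTCF1EWT a larger share of LINE peaks than of other peaks lay on chromosome X. The shares were 28 of 292 (9.59%) against 3.41% at 0 h, 47 of 476 (9.87%) against 2.86% at 2 h and 24 of 349 (6.88%) against 3.20% at 9 h. In dnTCF1Emut 2 of 56, 3 of 173 and 1 of 33 LINE peaks lay on chromosome X (3.57%, 1.73% and 3.03%), against 5.37%, 2.05% and 3.74% of other peaks. These shares carry no test.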
